A study of Mus musculus with 32 samples.

Results

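The transcripts described here encode subunits of the receptors for GABA, glycine and glutamate. They were measured in rd1 and wild-type (wt) mouse retina on postnatal days 2, 4, 6 and 8 (P2, P4, P6 and P8). Members were the genes whose symbol begins with Gabra, Gabrb, Gabrg, Gabrd, Gabbr, Glra, Glrb, Gria, Grin1, Grin2, Grin3, Grik or Grm followed by a digit, and no expression value entered the choice. The rule found 27 genes among the 12393 genes of the array, out of 43 receptor genes that it would take from the gene annotation. The others are not analysed here.

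The rd1 mice carried the Pde6b mutation together with the linked light ear mutation on a C57BL/6 background, and the wt mice were C57BL/6. Each sample pooled between 8 and 14 retinas, and the 8 groups of genotype and age had 4 samples each, 32 arrays in all. No source says whether the samples of a group were taken from different litters, and the p-values below then measure only the spread between these samples, which may be technical. Whole retinas were lysed, so fewer cells of a type and less RNA per cell cannot be told apart.

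GABA-A receptors are pentameric chloride channels, usually built from alpha and beta subunits with a gamma or delta subunit, and glycine receptors are chloride channels of alpha and beta subunits. GABA-B receptors and the metabotropic glutamate receptors act through G proteins, whereas AMPA, kainate and NMDA receptors are cation channels of 4 subunits opened by glutamate. In the retina, photoreceptors and bipolar cells release glutamate, most amacrine cells release GABA or glycine, and the synapses of the inner retina form during the first postnatal weeks.

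The promoters of 3 members that the results turn on are shown from RefSeq (build GRCm38.p6): Gabra2, the one member with a genotype difference, Gabrg1, its neighbour on chromosome 5, and Glrb, the largest riser with age among members measured above background. Each run is the 250 bases before the annotated start, read 5′ to 3′ on the gene's minus strand, at chr5:71095850-71096099 for Gabra2, chr5:70842618-70842867 for Gabrg1 and chr3:80913661-80913910 for Glrb. Capitals mark the GC box core GGGCGG, the homeodomain core TAATCC and the TATA motif TATAAA on either strand, which do not overlap one another here.
Gabra2: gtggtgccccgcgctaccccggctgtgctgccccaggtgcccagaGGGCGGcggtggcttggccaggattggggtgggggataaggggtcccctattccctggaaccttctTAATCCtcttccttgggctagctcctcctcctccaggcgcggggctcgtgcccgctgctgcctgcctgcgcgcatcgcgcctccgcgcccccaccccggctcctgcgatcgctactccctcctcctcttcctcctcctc
Gabrg1: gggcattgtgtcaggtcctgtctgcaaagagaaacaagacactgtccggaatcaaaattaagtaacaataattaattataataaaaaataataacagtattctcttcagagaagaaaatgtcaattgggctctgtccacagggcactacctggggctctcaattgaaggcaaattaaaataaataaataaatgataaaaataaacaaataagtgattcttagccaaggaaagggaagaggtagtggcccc
Glrb: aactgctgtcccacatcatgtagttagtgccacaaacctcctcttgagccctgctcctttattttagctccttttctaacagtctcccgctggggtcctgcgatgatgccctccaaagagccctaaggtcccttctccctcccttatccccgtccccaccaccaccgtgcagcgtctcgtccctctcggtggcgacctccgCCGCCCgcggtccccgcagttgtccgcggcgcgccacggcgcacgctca

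The Gabra2 run is 70.0% G and C with 18 CpG dinucleotides, the Glrb run 62.4% with 20 and the Gabrg1 run 35.6% with 1, against a median of 6 CpG over 32851 RefSeq promoters. GGGCGG occurred in 32.7% of all promoters, TATAAA in 12.4% and TAATCC in 6.25%. The 20 members with a listed promoter had 26 promoters among them. Of these 26, 1 held TAATCC (Gabra2), 10 held GGGCGG and 4 held TATAAA. These matches describe the letters of the window only.

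Values are log2 levels from the robust multi-array average (RMA), 1 value for each probe set and array, and array medians lay between 6.54 and 6.76. The members had 35 probe sets, 6 genes had several, and the brightest stood for its gene. Control probe sets for bacterial transcripts, 27 in all, ranged from 1.75 to 4.89, and a level not above 4.89 cannot be told from background here. The mean over all arrays exceeded 4.89 for 10 members (Gabra2, Gabrb2, Gabbr1, Glrb, Gria1, Gria2, Gria3, Grik2, Grik5 and Grm8) and did not for 17. Of these 17, 11 never exceeded it on any array: Gabra6, Gabrg1, Gabrg3, Glra1, Glra3, Glra4, Grik3, Grin2a, Grin2c, Grin2d and Grin3b. Levels of different probe sets are not compared with one another below.

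Pde6b, the mutated gene, was read first as a check of the labels. At P4, P6 and P8 it was lower on every rd1 array (8.65 to 12.04) than on any wt array of the same age. At P2 the groups were mixed, and Pde6b read 7.0, 9.18, 9.24 and 6.84 on the rd1 arrays and 6.96, 7.19, 9.42 and 9.76 on the wt arrays, replicates 1 to 4. Replicates 2 and 3 labelled rd1 and replicates 1 and 2 labelled wt therefore go against their labels, and the results for age are therefore set beside values from P4 or over both genotypes. The rd1 P8 replicate 4 stood apart in its lens transcripts, with a summed marker level of 15.28 on the log2 scale, the highest of all arrays.

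Between the genotypes, 1 of the 27 receptor subunit genes differed: Gabra2, the alpha 2 subunit of the GABA-A receptor, was higher in rd1. Over P4, P6 and P8 together its level was 0.81 ± 0.15 (SE) log2 units higher in rd1 than in wt retina, 1.76-fold (limma, adjusted p = 0.0149). In that comparison 0.258% of all genes were called, and 0.0888% were called higher in rd1. At single ages no member was called in limma, while 0.0161% of all genes were called at P2, none (0%) at P4, 0.258% at P6 and 0.218% at P8. An unadjusted p under 0.05 was found for 0 members at P2 (7.41% of all genes), 1 at P4 (2.95%), 2 at P6 (9.29%), 8 at P8 (18.3%) and 10 in the mean of P4, P6 and P8 (21.1%). The change from P4 to P8 was not called different between the genotypes for any member in limma (0.0242% of all genes were called), and 1 member had an unadjusted p under 0.05 (4.28% of all genes).

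Gabra2 lies on chromosome 5 (chr5:70958392-71095849), the chromosome that also carries Pde6b (chr5:108388373-108431743). On the rd1 arrays it read 6.69, 6.97, 6.32 and 5.56 at P4, and on the wt arrays 4.94, 5.23, 5.14 and 5.31. At P6 the rd1 values were 5.32, 5.56, 6.39 and 5.83 against wt values of 5.26, 5.32, 5.25 and 5.40. At P8 the rd1 values were 5.30, 5.37, 5.26 and 5.37 against wt values of 4.48, 4.69, 4.46 and 4.70. Every rd1 array thus exceeded every wt array at P4 and at P8, and the groups overlapped at P6. In wt retina the P8 values were not above the bacterial controls.

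The Gabra2 difference was 1.23 ± 0.26 (SE) at P4, 2.34-fold, 0.47 ± 0.26 at P6 and 0.75 ± 0.26 at P8, 1.68-fold. None of these passed at its own age (limma adjusted p = 0.301, 0.68 and 0.212). With 4 arrays against 4 the exact permutation test cannot go below 0.0286 (two-sided), the value found at P4 and P8, and at P6 it gave 0.0571. Permuting the genotype labels within each age, over 343000 regroupings, gave an exact two-sided p of 1.17e-05 for the mean difference. Gabra2 alone was permuted in this way, on the arrays where limma had called it. This p is not adjusted for the other probe sets and is not independent support. Gabra2 was called in all 24 refits that left out 1 array, with differences of 0.75 to 0.91. At P4 alone it passed when rd1 replicate 4, its lowest rd1 array, was left out (1.5, adjusted p = 0.0283).

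At P2 the Gabra2 values of the arrays labelled rd1 were 5.26, 5.03, 5.23 and 5.62, all inside the range of those labelled wt, 6.23, 5.81, 5.36 and 4.54. Within rd1 retina the gene was 1.06 ± 0.26 (SE) lower at P8 than at P4 (limma adjusted p = 0.00291), with no overlap. Within wt retina it was 0.57 ± 0.26 lower, which did not pass (adjusted p = 0.113), although the arrays of these ages did not overlap. The difference between these changes was not called.

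**Figure D1:**
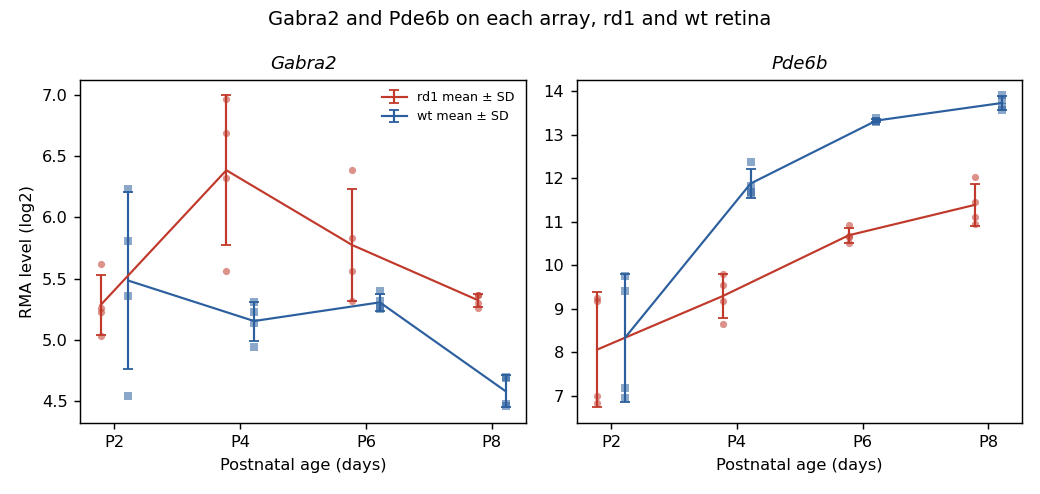
RMA level (log2) of Gabra2 and of Pde6b against postnatal age, with 1 point for each array and lines through the group means with SD bars, rd1 in red circles left of wt in blue squares (n = 4 each). For Gabra2 the rd1 points lie above all wt points at P4 and P8, and for Pde6b the groups are apart at P4, P6 and P8 but mixed at P2.

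The neighbours of Gabra2 in the same cluster of receptor genes were read beside it. Gabrg1, the gamma 1 subunit (chr5:70751047-70842617), and Gabrb1, the beta 1 subunit (chr5:71657921-72149572), were not called in any genotype comparison. Gabrb1 read 3.93, 4.39, 3.29 and 5.31 on the rd1 arrays at P8 and 4.38, 5.09, 4.31 and 5.20 on the wt arrays, and the groups overlapped.

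Some members that were lower in rd1 retina are given next, and none of them passed with all arrays. They do not follow the order of p. In the mean of P4, P6 and P8, 14 of the 27 members were higher in rd1. At P8 Grin2c, which was higher in rd1, had a smaller adjusted p than Gria1. Gria1, the AMPA receptor subunit GluA1, read 7.28, 7.16, 6.77 and 7.21 in rd1 and 7.74, 7.71, 7.41 and 7.73 in wt at P6, with no overlap. At P8 it read 6.51, 6.41, 6.03 and 6.70 in rd1 against 6.81, 7.17, 6.64 and 6.83 in wt, where the highest rd1 array passed the lowest wt array. The difference was -0.55 ± 0.16 (SE) at P6 (limma adjusted p = 0.216), -0.45 ± 0.16 at P8 (adjusted p = 0.214) and -0.39 ± 0.09 over P4, P6 and P8 (adjusted p = 0.0765). Without rd1 P8 replicate 4 the last value became -0.42 and passed (adjusted p = 0.0265). That refit called 0.823% of all genes, against 0.258% with all arrays. These Gria1 values are from the brightest probe set. The dimmer Gria1 probe set gave -0.16 ± 0.24 at P6 (adjusted p = 0.832) and -0.50 ± 0.24 at P8 (adjusted p = 0.268). Over P4, P6 and P8 it gave -0.24 ± 0.14 (adjusted p = 0.335).

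Gabrd, the delta subunit found in GABA-A receptors outside the synapse, read 3.01, 2.94, 3.05 and 2.67 in rd1 and 3.78, 3.15, 3.68 and 3.27 in wt at P6. At P8 it read 3.66, 3.09, 3.17 and 5.04 in rd1 and 4.51, 3.84, 4.73 and 4.38 in wt. All rd1 arrays at P6 lay below all wt arrays, while at P8 the 5.04 of rd1 replicate 4 was the highest of the 8. With that array the difference at P8 was -0.62 ± 0.26 (SE; limma adjusted p = 0.22), and without it -1.06 (adjusted p = 0.00422), past the threshold. The mean of P4, P6 and P8 was likewise -0.47 without it (adjusted p = 0.025). Without that array 0.581% of all genes were called at P8 and 0.823% in the mean, against 0.218% and 0.258% with it. All of the Gabrd array values above but 5.04 were not above the bacterial controls.

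Gabbr1, a subunit of the GABA-B receptor, read 9.59, 9.27, 9.46 and 9.62 in rd1 at P4 against 9.75, 9.73, 9.80 and 9.74 in wt, with no overlap. Its mean difference over P4, P6 and P8 was -0.27 ± 0.08 (SE; limma adjusted p = 0.172). The other probe sets of Gabbr1 gave -0.24, 0.06 and 0.01 in this contrast and were not called. Glrb, the beta subunit that anchors glycine receptors to gephyrin, read 8.95, 9.36, 8.79 and 9.43 in rd1 and 9.24, 9.70, 9.47 and 9.93 in wt at P8. The groups overlapped, and the difference of -0.45 ± 0.26 did not pass (adjusted p = 0.35). Grik5, a kainate receptor subunit that assembles with other kainate subunits, had its rd1 arrays (8.04 to 8.38) below its wt arrays (8.49 to 8.72) at P6, a difference of -0.29 ± 0.23 (adjusted p = 0.742).

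Groups without overlap were counted for all members. At P2 there was 1 such member (Gabrd, lower in the arrays labelled rd1), where 2.8% of all genes did not overlap. At P4 there were 2 (Gabra2 higher and Gabbr1 lower in rd1; all genes 3.15%) and at P6 there were 3, all lower in rd1 (Gabrd, Gria1 and Grik5; all genes 5.84%, 3.19% lower). At P8 there were 3, all higher in rd1 (Gabra2, Grik3 and Grin2d; all genes 11.8%, 9.28% higher). Grik3 and Grin2d differed by 0.11 and 0.06 log2 units at levels not above the bacterial controls.

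Dim probe sets were shifted slightly upward in rd1 across the whole array. The 4075 genes with a mean not above the highest bacterial control had a median rd1 minus wt difference of 0.13 at P8, and 89.4% of them lay above 0, whereas the median over all genes was 0.06. The 17 members with such a mean had a median of 0.08. Small positive differences such as those of Grik3, Grin2d, Grin2c (0.15 ± 0.05 at P8, limma adjusted p = 0.212) and Grin2a (0.11 ± 0.05, adjusted p = 0.217) stand beside this shift, and its part in them was not tested.

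**Figure D2:**
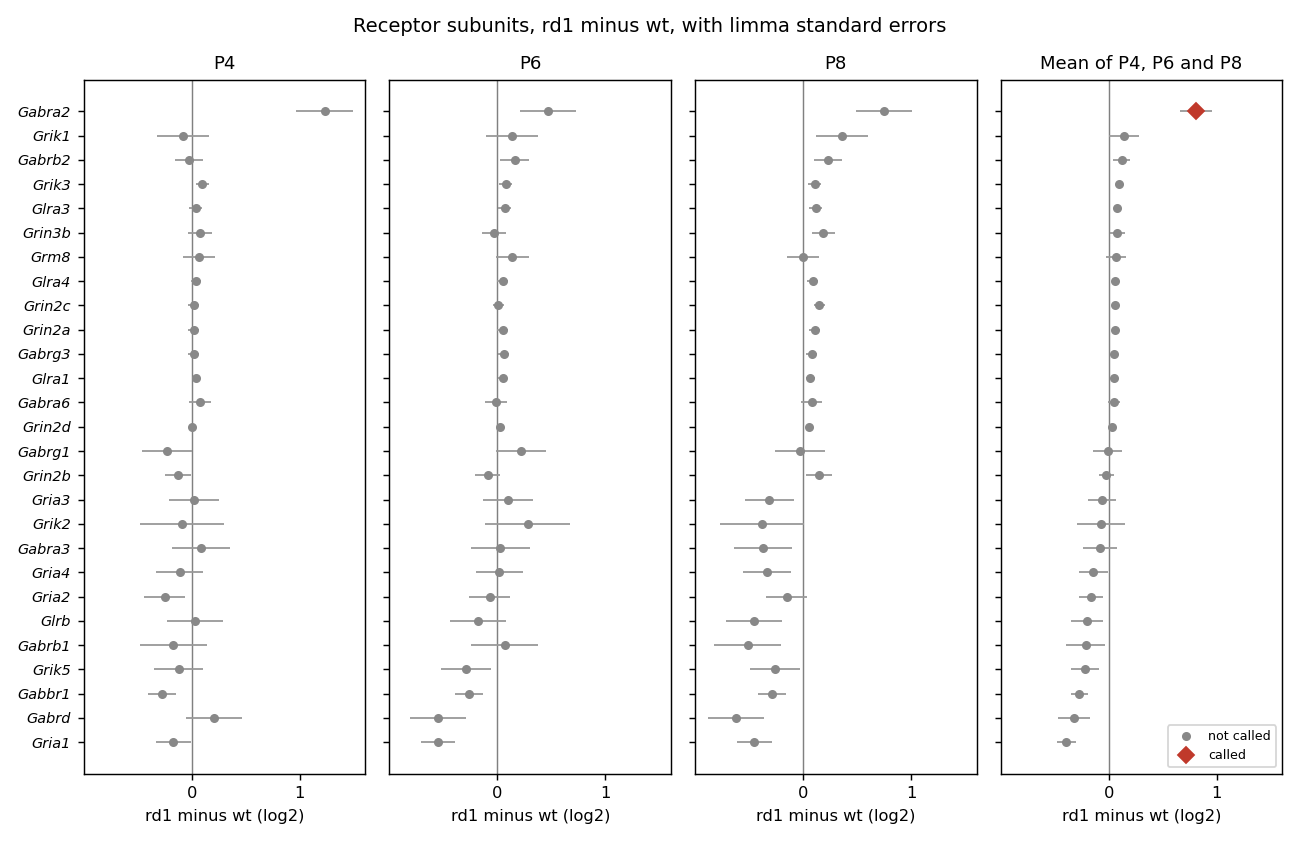
Difference between rd1 and wt (log2, positive where rd1 was higher) for each of the 27 genes at P4, P6 and P8 and in their mean, ordered by the mean, with limma standard errors as bars. The red diamond marks the single called difference, Gabra2 at 0.81, and Gria1 at -0.39 is the lowest mean.

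Markers of other cell types moved with genotype at P6. The summed level of 11 bipolar cell markers lay between 9.94 and 10.31 in rd1 and between 10.86 and 11.76 in wt (log2), and 4 of the 11 were called lower in rd1. Progenitor and dividing cell markers summed to between 11.57 and 11.84 in rd1 and between 10.86 and 11.05 in wt. Of these 8 markers, 2 were called higher in rd1, and all 8 differences were above 0. At P6 0.258% of all genes were called. Amacrine cell markers overlapped at P6, with 12.14 to 12.70 in rd1 and 12.32 to 12.64 in wt, and 0 of 10 were called. The rod markers summed to between 15.42 and 15.56 in rd1 and between 15.76 and 15.98 in wt, with 0 of 9 called and all 9 differences below 0. The 3 horizontal cell markers summed to between 8.15 and 8.26 in rd1 and between 8.50 and 8.90 in wt, with 0 called. The part of cell composition in the Gria1, Gabrd and Grik5 differences at P6 was not tested.

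With age, Glrb, the beta subunit of the glycine receptor, rose most among the members measured above background, in both genotypes. In rd1 retina 7 of the 27 members were higher at P8 than at P2 and 1 was lower, 29.6% in all, against 35.9% of all genes (18.3% higher and 17.6% lower). In wt retina 10 were higher and 1 lower, 40.7%, against 37.8% of all genes (19% higher and 18.8% lower). Counted in either direction, the receptor subunit genes were thus called about as often as genes in general. The median difference was 0.13 in rd1 and 0.10 in wt, against 0.02 in rd1 and -0.05 in wt over all genes. Of the 10 members with a mean above the bacterial controls, 3 were higher and 1 lower in rd1 and 5 were higher and 1 lower in wt.

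Because 4 P2 arrays read against their labels for Pde6b, the same contrast was formed over both genotypes together. The difference then does not depend on the P2 labels, although its standard error still comes from the groups as labelled. This contrast called 12 members, 11 higher and 1 lower (44.4%, against 47.2% of all genes). From P4, where Pde6b fits the labels, 13 members were called at P8 in rd1 (10 higher and 3 lower, against 32.6% of all genes called) and 7 in wt, all higher (28.9%, with 14.2% higher). Without rd1 P4 replicate 1 the rd1 count was 7, and without wt P4 replicate 2 the wt count was 4. The shares of all genes called in these refits were not counted.

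Among the GABA-A subunits, Gabrd exceeded the bacterial controls on 1 array of 32. It read 1.83, 1.90, 1.97 and 2.04 at P2 on the arrays labelled rd1 and 2.33, 2.17, 2.09 and 2.59 on those labelled wt. Set against the P8 values above, the P8 minus P2 difference was 1.81 ± 0.26 (SE) in rd1 (limma adjusted p = 2.01e-06) and 2.07 ± 0.26 in wt (adjusted p = 1.99e-07). Without rd1 P8 replicate 4 the rd1 difference was 1.38 and still passed. From P4 the difference was 0.81 in rd1 (adjusted p = 0.0202), where the arrays overlapped, and 1.65 in wt. The rd1 call from P4 was lost without rd1 P8 replicate 4 (0.37, adjusted p = 0.131) or rd1 P4 replicate 1 (0.71, adjusted p = 0.0723).

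Gabrg1, which exceeded the bacterial controls on no array, read 4.86, 4.30, 4.36 and 4.82 at P8 in rd1 and 4.59, 4.78, 4.63 and 4.46 in wt. The P8 minus P2 difference was 0.83 ± 0.23 (SE) in rd1 (limma adjusted p = 0.00594) and 1.07 ± 0.23 in wt (adjusted p = 0.000479), and the P8 arrays lay above the P2 arrays in both. From P4 the difference was 0.93 in rd1 (adjusted p = 0.00302) and 0.74 in wt (adjusted p = 0.0173, lost without wt P4 replicate 2 at 0.64). These are differences on a probe set that cannot be told from background. Gabrb1 was higher at P8 in wt by 1.21 ± 0.31 (adjusted p = 0.00218). In rd1 its difference of 0.34 ± 0.31 did not pass (adjusted p = 0.463). From P4 it was not called, with -0.04 in rd1 (adjusted p = 0.926) and 0.30 in wt (adjusted p = 0.566), and over both genotypes P8 exceeded P2 by 0.78 (adjusted p = 0.00383). The Gabrb1 mean over all arrays, 4.22, was not above the bacterial controls.

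The alpha subunits differed among themselves in wt retina. Gabra3, the alpha 3 subunit, rose by 0.99 ± 0.27 (SE; limma adjusted p = 0.00463) while Gabra2 fell by 0.90 ± 0.26 (adjusted p = 0.00749). The highest wt value of Gabra3 was 4.86, so its rise lay on levels that cannot be told from background. The call for Gabra2 was lost without wt P2 replicate 1, its highest wt array at that age (-0.65, adjusted p = 0.0524). In rd1 the values were 0.62 ± 0.27 for Gabra3 (adjusted p = 0.082) and 0.04 ± 0.26 for Gabra2 (adjusted p = 0.937). These differences rest on the P2 arrays as labelled. Over both genotypes, 1 of the 3 alpha subunits was called higher at P8 than at P2 and 0 lower. The wt fall of Gabra2 from P4, given above, did not pass either. Gabra6, typical of cerebellar granule cells, was not above the bacterial controls on any array, nor was Gabrg3. Gabrb2, the beta 2 subunit, lay between 5.12 and 5.94 on all arrays and was not called between P8 and P2 in either genotype, though it was between P8 and P4 in rd1 (0.40 ± 0.13, adjusted p = 0.0218). That call was kept in 5 of 8 refits without 1 array and lost without rd1 P4 replicate 1 (0.39), rd1 P8 replicate 1 (0.35) or rd1 P8 replicate 2 (0.37).

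Of the 4 glycine receptor subunits among the members, which do not include Glra2, Glrb alone was measured above the bacterial controls. At P2 it read 8.21, 7.87, 7.52 and 7.40 on the arrays labelled rd1 and 7.52, 7.45, 7.85 and 7.94 on those labelled wt, all below every P8 array. The difference was 1.38 ± 0.26 (SE) in rd1, 2.61-fold (limma adjusted p = 0.000104), and 1.89 ± 0.26 in wt, 3.72-fold (adjusted p = 1.04e-06). From P4 it was 0.96 in rd1 (adjusted p = 0.00668) and 1.44 in wt (adjusted p = 9.49e-05). Its ligand-binding partners Glra1, Glra3 and Glra4 lay between 2.19 and 2.65 on all 32 arrays and were never above the bacterial controls.

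Gabbr1 rose by 0.37 ± 0.13 (SE) in rd1 (limma adjusted p = 0.0353) and by 0.54 ± 0.13 in wt (adjusted p = 0.00195) on its brightest probe set. The rd1 call was kept in 4 of 8 refits without 1 array. It was lost without rd1 P2 replicate 1 (0.25), rd1 P2 replicate 2 (0.35), rd1 P8 replicate 2 (0.29) or rd1 P8 replicate 4 (0.35). From P4 it was 0.35 higher in rd1 (adjusted p = 0.0497, kept in 2 of 8 refits) and 0.37 higher in wt (adjusted p = 0.0397, kept in 1 of 8), and the arrays overlapped in both. The probe sets of this gene disagree. Its second brightest one, with a mean of 7.79, was not called (0.36 in rd1, adjusted p = 0.4, and 0.22 in wt, adjusted p = 0.596). Another, with a mean of 6.56, fell by 0.62 ± 0.23 in rd1 (adjusted p = 0.0373) and by 0.73 ± 0.23 in wt (adjusted p = 0.013). The call of a rise for Gabbr1 therefore holds for its brightest probe set only.

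Grm8, a group III metabotropic glutamate receptor that reduces transmitter release, was at 6.09, 6.04, 5.56 and 6.20 in rd1 at P8 and at 5.79, 6.04, 5.92 and 6.14 in wt. At P2 all arrays lay lower, with 5.33, 4.91, 5.32 and 5.13 for those labelled rd1 and 5.28, 5.07, 5.39 and 5.22 for those labelled wt. The rise was 0.80 ± 0.15 (SE), 1.74-fold, in rd1 (limma adjusted p = 0.000104) and 0.73 ± 0.15, 1.66-fold, in wt (adjusted p = 0.000307). From P4 the rise was 0.62 in rd1 (adjusted p = 0.00272) and 0.68 in wt (adjusted p = 0.000889). The P6 arrays (5.29 to 5.52 in rd1 and 5.01 to 5.59 in wt) also lay below all P8 arrays of the same genotype.

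**Figure D3:**
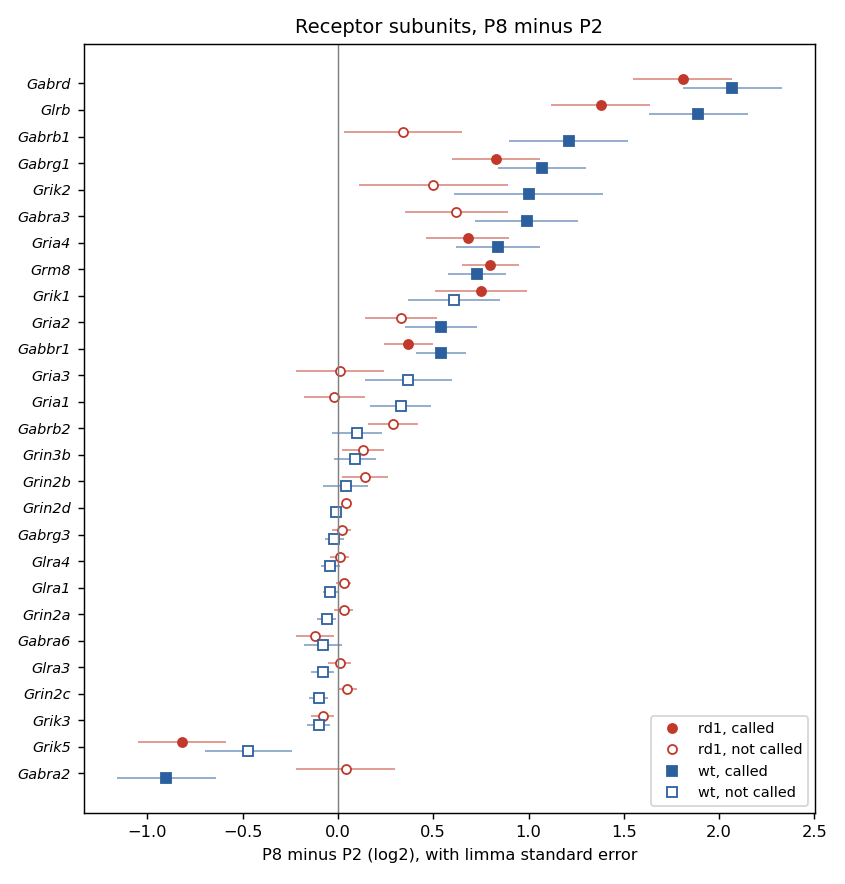
Difference between P8 and P2 (log2, positive where P8 was higher) for each of the 27 genes, ordered by the wt value, with limma standard errors, rd1 in red circles above wt in blue squares and filled symbols for called differences. Gabrd, on a probe set above the bacterial controls on 1 array, and Glrb stand at the top in both genotypes, and Gabra2 is at -0.90 in wt and at 0.04 in rd1.

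On the brightest probe sets of the AMPA receptor subunits, the means of Gria1, Gria2 and Gria3 were highest at P6 and that of Gria4 at P8. The contrast of P8 and P6 was chosen after these levels had been seen. Whether this course differs from that of other genes was not tested. Over both genotypes, P6 exceeded P2 by 0.90 for Gria1, 1.01 for Gria2 and 0.91 for Gria3. P8 then fell below P6 by 0.74 for Gria1 (limma adjusted p = 1.02e-05), by 0.58 for Gria2 (adjusted p = 0.00126) and by 0.73 for Gria3 (adjusted p = 0.000903). Gria4 was 0.59 higher at P8 than at P6 (adjusted p = 0.00506), but its P6 arrays (4.53 to 4.68) were not above the bacterial controls. In the contrast of P8 and P6, 27.9% of all genes were called, and in that of P6 and P2 39.9%.

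Gria2, whose edited GluA2 subunit limits calcium entry through AMPA receptors, read 9.25, 9.58, 9.46 and 9.47 at P6 in rd1 and 9.59, 9.60, 9.54 and 9.30 in wt. At P8 it read 8.42, 8.83, 8.47 and 9.55 in rd1 and 8.83, 9.07, 9.0 and 8.98 in wt. In rd1 the P8 arrays were lower except replicate 4, and in wt all were lower. Its second probe set gave -0.71 between P6 and P8. Gria3, the GluA3 subunit, read 5.71, 5.32, 5.91 and 6.68 at P6 in rd1 and 6.06, 5.49, 5.41 and 6.26 in wt. At P8 its values were 5.04, 5.30, 4.68 and 4.87 in rd1, all lower than at P6, and 5.29, 5.04, 5.07 and 5.74 in wt, which overlapped P6.

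For Gria1 the P8 arrays lay below all P6 arrays in both genotypes on the brightest probe set. A dimmer probe set of the same gene gave 0.36 between P6 and P8 (limma adjusted p = 0.122) and 0.00 between P2 and P6, so the course holds for 1 of its 2 probe sets. Gria4, the GluA4 subunit, read 5.15, 5.60, 4.73 and 4.67 at P8 in rd1 and 5.08, 5.32, 5.16 and 5.90 in wt. Its P8 minus P2 difference was 0.68 ± 0.22 (SE) in rd1 (adjusted p = 0.0178) and 0.84 ± 0.22 in wt (adjusted p = 0.00331). The rd1 call was lost on leaving out replicate 1 (0.56) or replicate 4 (0.60) of rd1 P2, or replicate 2 of rd1 P8 (0.49).

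**Figure D4:**
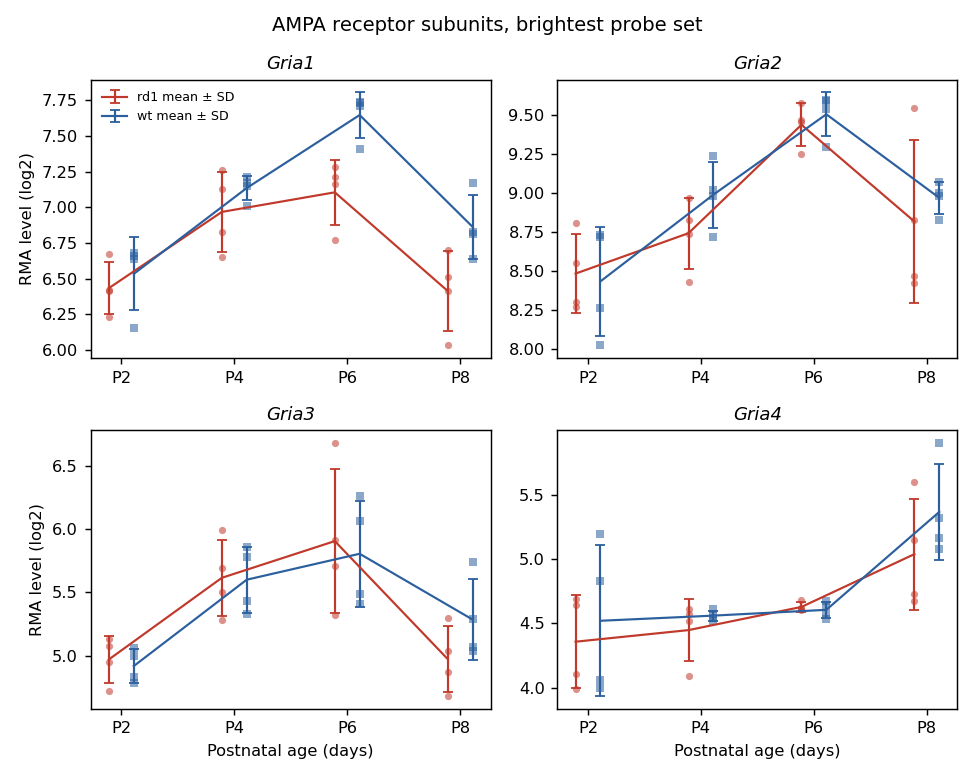
RMA level (log2) of Gria1, Gria2, Gria3 and Gria4 against postnatal age, with 1 point for each array and lines through the group means with SD bars, rd1 in red circles left of wt in blue squares (n = 4 each). The means of Gria1, Gria2 and Gria3 are highest at P6 in both genotypes and that of Gria4 at P8. The vertical scales differ between genes.

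Of the kainate receptor subunits, Grik5 fell by 0.82 ± 0.23 (SE) between P2 and P8 in rd1 (limma adjusted p = 0.00511) and was the only member called lower there. In wt the difference was -0.47 ± 0.23 (adjusted p = 0.106). Its P2 values were 9.75, 8.42, 8.56 and 9.42 on the arrays labelled rd1 and 8.64, 8.67, 9.09 and 9.39 on those labelled wt. At P8 they were 8.13, 8.17, 7.76 and 8.82 in rd1 and 8.62, 8.44, 8.39 and 8.46 in wt. From P4 to P8 Grik5 was not called in either genotype. On rd1 P2 replicates 1 and 4, the highest for Grik5, the Gapdh control probe sets differed by 1.54 and 1.57 (3′ minus 5′, log2), a sign of RNA quality, while no other array exceeded 0.74. The actin control probe sets differed by 1.05 and 1.07 on these 2 arrays, and by up to 1.65 on the other arrays. The part of RNA quality in the Grik5 difference was not tested.

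Grik1, which encodes the GluK1 subunit found at cone synapses with OFF bipolar cells, rose by 0.75 ± 0.24 (SE) in rd1 (limma adjusted p = 0.0166). Leaving out either rd1 P2 replicate 2 (0.66) or replicate 4 of rd1 P8 (0.57) ended the call. In wt the difference of 0.61 ± 0.24 did not pass (adjusted p = 0.0511). From P4 Grik1 was 0.94 higher in rd1 (adjusted p = 0.00398, kept in 8 of 8 refits), and 0.50 in wt did not pass (adjusted p = 0.138). The Grik1 mean over all arrays, 4.77, was not above the bacterial controls. Grik2, the GluK2 subunit, rose by 1.00 ± 0.39 in wt (adjusted p = 0.0426), a call kept in 2 of 8 refits. The 6 arrays whose removal ended it were wt P2 replicates 3 and 4 and each of the 4 wt P8 arrays, with differences of 0.63 to 1.05. Grik3 was not above the bacterial controls on any array.

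Within P2, 4 members split the arrays along lines other than genotype, a pattern noted after the values had been seen. The share of all genes with such a split was not counted, so the pattern cannot be read as particular to the receptor genes. Grik2 read 4.57, 5.85, 5.90 and 4.18 on the arrays labelled rd1 and 5.87, 5.91, 4.35 and 3.87 on those labelled wt. Gabra3 read 2.92, 4.05, 4.20 and 3.28 on the arrays labelled rd1 and 4.28, 4.20, 3.02 and 2.95 on those labelled wt. Gria4 read 3.99, 4.69, 4.64 and 4.11 on the arrays labelled rd1 and 5.19, 4.83, 4.06 and 4.00 on those labelled wt. All 3 genes were high on rd1 replicates 2 and 3 and on wt replicates 1 and 2, the arrays whose Pde6b level goes against the label, and Grik5 was lowest on the same 4 arrays. The Gapdh 3′ minus 5′ difference was 0.05 to 0.16 on these 4 arrays, against 0.34 to 1.57 on the other P2 arrays. For the actin control probe sets the ranges overlapped, with 0.85 to 0.92 against 0.79 to 1.07. The part of RNA quality in the split was not tested. Gria4 was 0.59 higher at P8 than at P4 in rd1 (limma adjusted p = 0.0448, kept in 3 of 8 refits without 1 array) and 0.81 higher in wt (adjusted p = 0.00662). Gabra3 was called from P4 to P8 in wt (0.76, adjusted p = 0.0362, kept in 1 of 8 refits), on levels not above the bacterial controls. Grik2 was not called from P4 in either genotype.

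The 5 NMDA receptor subunits among the members stayed at or near background at all ages. Grin1 and Grin3a are not among the members, so nothing is shown for them. Grin2a, Grin2c, Grin2d and Grin3b were not above the bacterial controls on any array, and Grin2b, the GluN2B subunit that prevails in young neurons, lay between 4.25 and 4.94. None of the 5 was called between P8 and P2 in either genotype. From P4 in rd1, Grin2d was 0.08 higher (limma adjusted p = 0.00689) and Grin3b 0.31 higher (adjusted p = 0.0385, kept in 2 of 8 refits), on probe sets not above the controls.

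**Figure D5:**
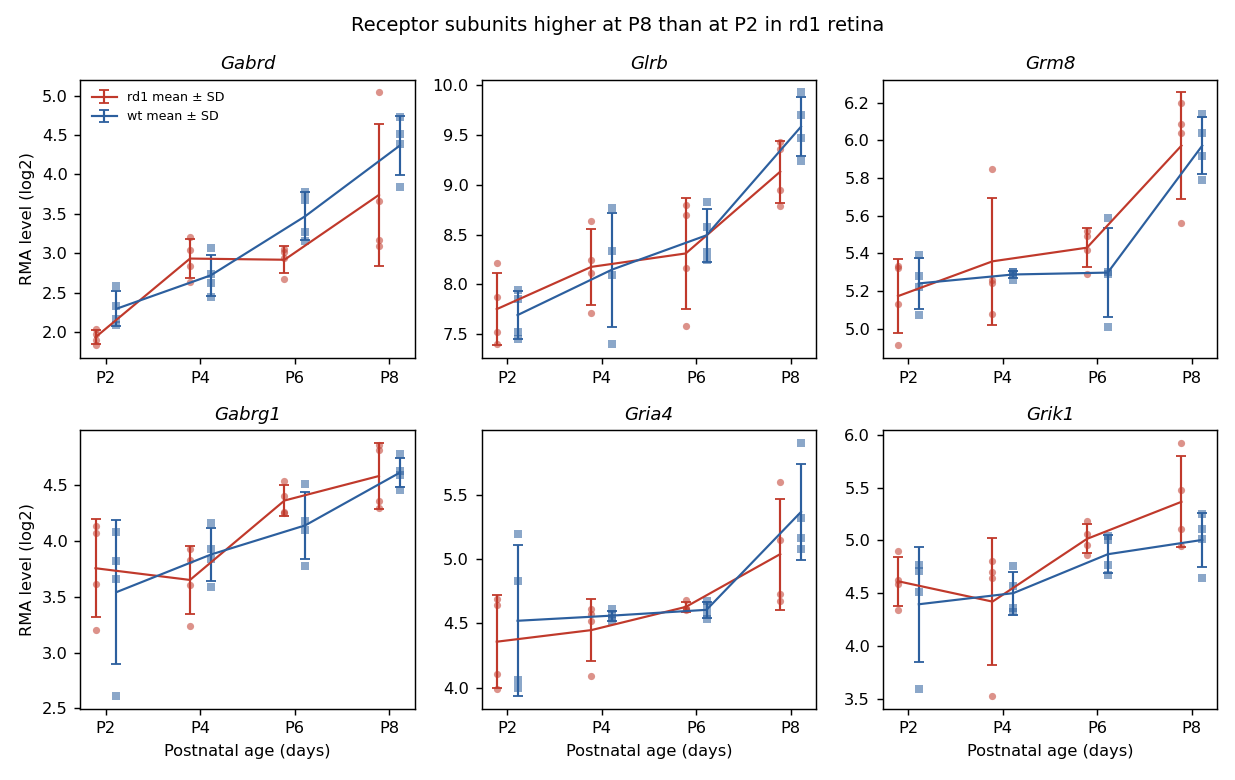
RMA level (log2) of 6 members that were higher at P8 than at P2 in rd1 retina, against postnatal age, with 1 point for each array and lines through the group means with SD bars, rd1 in red circles left of wt in blue squares (n = 4 each). Gabrd shows the single rd1 array at 5.04 at P8, and Gria4 shows the spread of the P2 arrays from 3.99 to 5.19. The vertical scales differ between genes.

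Genes that work beside these receptors were read from lists of synthesis, transport and scaffold genes. Of 6 measured genes of GABA and glycine synthesis and transport, 3 were higher at P8 than at P2 in both genotypes and none lower, and from P4 1 was higher in rd1 and 2 in wt. The shares of all genes called were those given above, 35.9% in rd1 and 37.8% in wt from P2, and 32.6% in rd1 and 28.9% in wt from P4. The 3 were Gad1, which makes GABA (0.76 in rd1 and 1.08 in wt), Slc32a1, the vesicular transporter of both transmitters (0.78 in rd1 and 0.91 in wt), and Slc6a9, a glycine transporter (1.07 in rd1 and 0.68 in wt). All 3 are also among the 10 amacrine cell markers, of which 3 in rd1 and 4 in wt were lower. From P4, Gad1 was called in both (0.74 in rd1 and 0.82 in wt) and Slc32a1 in wt (0.69), while Slc32a1 in rd1 (0.30) and Slc6a9 (0.10 in rd1 and 0.06 in wt) were not. Of 6 genes of the inhibitory postsynaptic scaffold, 4 were higher in each genotype, and from P4 1 in rd1 and 3 in wt. Gphn was among the 4, the gene of the gephyrin that binds Glrb (0.48 in rd1, limma adjusted p = 0.0336, and 1.24 in wt, adjusted p = 1.23e-06). From P4 it was called in wt (0.82, adjusted p = 0.000555) and not in rd1 (0.33, adjusted p = 0.138).

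Of 5 chloride transport genes, 2 were higher and 2 lower in rd1, and 3 higher and 2 lower in wt, against 1 higher and 2 lower from P4 in each genotype. Slc12a5, the chloride exporter KCC2 whose activity makes GABA inhibitory, was higher at P8 by 1.58 in rd1 (limma adjusted p = 7.56e-06) and by 1.95 in wt (adjusted p = 2.42e-07), and from P4 by 1.27 in rd1 (adjusted p = 0.000241) and 1.41 in wt (adjusted p = 5.7e-05). Slc12a2, the chloride importer NKCC1, was higher by 0.48 in wt (adjusted p = 0.00223) and by 0.01 in rd1 (adjusted p = 0.955), and it was not called from P4 (0.16 in rd1 and 0.11 in wt). Of 16 glutamate scaffold and auxiliary genes 4 were higher and 4 lower in each genotype, from P4 5 higher and 3 lower in rd1 and 4 higher and 2 lower in wt, and Dlg4, which encodes PSD-95, was higher by 1.64 in rd1 and 1.36 in wt, and from P4 by 1.47 in rd1 and 1.93 in wt. Of 5 genes of glutamate synthesis and transport, 3 were higher in rd1 and 4 in wt, and from P4 2 in each. Slc17a6, a vesicular glutamate transporter, was higher by 1.00 in rd1 and 1.36 in wt, and from P4 by 1.02 in rd1 and 0.83 in wt.

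None of the genes on these lists was called between the genotypes over P4, P6 and P8. Among 7 other receptor subunits outside the rule, 1 was called there: Gabrr1, the rho 1 subunit of ionotropic GABA receptors on bipolar cells and also 1 of the 11 bipolar cell markers above, was 1.08 lower in rd1 (limma adjusted p = 0.0241). It rose between P2 and P8 by 5.08 in rd1 and by 5.80 in wt, and from P4 by 5.17 in rd1 and by 5.91 in wt. Over P2 to P8 all 9 rod markers were called higher in each genotype (median 3.75 in rd1 and 3.8 in wt), as were 10 of 11 bipolar cell markers, and all 8 progenitor and dividing cell markers were called lower (median -3.78 in rd1 and -3.94 in wt). Of 10 amacrine cell markers 4 were higher and 3 lower in rd1, and 4 higher and 4 lower in wt. Gad1, Slc32a1 and Slc6a9, given above, are among those higher. The bipolar cell sum at P8 was 11.38 to 13.37 in rd1 and 12.62 to 13.39 in wt, and at P2 9.14 to 9.54 on the arrays labelled rd1 and 9.27 to 9.43 on those labelled wt. The amacrine cell sum was 12.52 to 12.96 at P8 in rd1 and 12.78 to 13.21 in wt, against 12.54 to 12.85 at P2 on the arrays labelled rd1 and 12.67 to 12.93 on those labelled wt, and these ranges overlapped. The part of these cell types in the age differences of the receptor subunits was not tested.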

How the data were processed

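Labelled RNA of 32 samples was hybridised to Affymetrix MOE430A arrays, 1 array for each sample. The authors computed the deposited log2 levels with RMA (version not given in the sources used here), which corrects background, quantile normalizes and summarises probes. A second deposited table holds the authors' own signed fold changes and p-values for rd1 against wt and was not used. Arrays carry no read depth, so their number limits the precision.

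Of 22690 probe sets, 64 controls were left out. Symbols were updated through gene identifiers: 20380 probe sets had 1 symbol, 691 several and 1555 were not listed, and the last 2 kinds were not named. The brightest probe set by its mean over all arrays stood for a gene. Groups were fitted in limma 3.58.1 (R 4.3.3) with 1 mean for each of 8 groups (24 residual degrees of freedom) and a trend of the variance with intensity, tested on simulated data beforehand. A difference was called at a Benjamini-Hochberg adjusted p under 0.05 over all 22626 probe sets, two-sided. Percentages of all genes called are over 12393 genes.

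Replicate arrays of a group correlated at 0.981 to 0.998. Array values are given for members called between genotypes, the 3 with the smallest p at each age, the largest risers and fallers among those called in wt, Gabra2 and Glrb, and further members chosen after their values were seen. Members and lists were chosen with earlier results of these data known. Marker sums are log2 of summed linear levels. One metabotropic receptor gene is not reported here. Alternatives covered scaling, variance model, array weights, dim probe sets, probe set choice, samples fitted, the replicate number as a block and each array left out.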

Additional observations from a re-analysis of the deposited data

Results flagged for a closer look

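Among the 18 genes with array values, 144 groups of 4 arrays were checked for a single array far from the other 3 by Dixon's ratio, and 12 were marked. Chance marks about 1 group in 20. All values are log2 levels.

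Of the kainate receptor subunits, Grik5 had 3 such groups. It read 8.59 on rd1 P4 replicate 4 (the others 7.97 to 8.06), 8.04 on rd1 P6 replicate 4 (8.33 to 8.38) and 8.49 on wt P4 replicate 3 (8.20 to 8.23). Grik1 read 3.53 on rd1 P4 replicate 1, against 4.65 to 4.81 on the others. Grik2 read 6.67 on wt P4 replicate 3, against 5.86 to 5.97.

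Of the AMPA receptor subunits, Gria1 read 6.15 on wt P2 replicate 3 (the others 6.64 to 6.68) and 7.41 on wt P6 replicate 3 (7.71 to 7.74). Gria4 read 4.09 on rd1 P4 replicate 4, against 4.52 to 4.61.

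Gabra3 read 4.92 on rd1 P8 replicate 1, where the other arrays read 3.96 to 4.08, and 3.96 on wt P8 replicate 3, where the others read 4.77 to 4.86. At P8 this probe set thus took a level near 4 or near 4.9 in each genotype. Gabbr1 read 9.75 on wt P8 replicate 3, against 10.21 to 10.28, and the NMDA subunit Grin3b read 3.18 on wt P8 replicate 1, against 2.82 to 2.85.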

How the results depend on the processing

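Of 741 alternative values for 39 named differences, 698 kept their direction and side of the threshold, 34 lost the call, 9 gained it and 0 changed sign. The Gabra2 call in the mean of P4, P6 and P8 held in all 34 of its alternatives (0.71 to 0.91, adjusted p 0.00109 to 0.0384).

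Counts of called members moved under these settings. Array quality weights gave 1 member at P4, 1 at P6, 9 at P8 (7 higher and 2 lower in rd1) and 2 in the mean of P4, P6 and P8, where it called 0.0403%, 4.17%, 14.7% and 1.94% of all genes. With the P2 arrays left out, 1 member (Gabra2) was called at P4 (0.0484% of all genes). For P8 minus P2, the rd1 count was 5 with the compared groups only (27% of all genes). From P4 it was 13 in rd1 (32.6%) and 7 in wt (28.9%). Leaving out each array gave 0 to 1 at P4 and at P8, 1 to 3 in the mean, 6 to 9 for P8 minus P2 in rd1 and 9 to 11 in wt, and 0 at P2, at P6 and in the change from P4 to P8. The matching shares of all genes were 0% to 0.00807% at P4, 0.0646% to 0.976% at P8 and 0.113% to 0.823% in the mean. They were 32.9% to 35% for P8 minus P2 in rd1 and 32.8% to 36.6% in wt. At P2 they were 0% to 0.992%, at P6 0.0242% to 0.379% and in the change 0.0242% to 0.0565%. The 3 calls in the mean, without rd1 P8 replicate 4, were Gabra2, Gabrd and Gria1. That refit called 0.823% of all genes, against 0.258% with all arrays. Refits of P8 against P4 without 1 array, added after the data were seen, gave 7 to 14 in rd1 and 4 to 7 in wt. The shares of all genes called in the refits from P4 were not counted.

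The replicate numbers of the labels did not pair the arrays: 7 of 16 same-numbered pairs correlated above 0.1 (-0.425 to 0.607), and 6 of 16 arrays correlated best with their own number. With the replicate block the mean of P4, P6 and P8 gave 2 members (Gria1 added), P8 minus P2 gave 8 in rd1 and 12 in wt, and the single ages 0. Leaving out the 30% dimmest probe sets removed 13 members and kept 14. The cause of these shifts was not tested.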
